A study of Mus musculus with 9 samples.

Results

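Padi2 and Padi4 encode peptidylarginine deiminases (PADs), and they are the 2 genes described here, of 37187 genes in the LSK table and 45076 in the neutrophil table. They were chosen by their symbols after a measured value had drawn attention to them: Padi2 transcript was nearly absent in knockout neutrophils. The neutrophil difference between genotypes is therefore given as a description with no test, for both genes. The LSK difference had no part in the choice and was tested.

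PADs convert arginine in proteins into citrulline and need calcium for activity, which removes a positive charge from the target. Padi4 is the PAD best known from neutrophils, where it enters the nucleus and citrullinates histones, loosening chromatin before DNA is cast out as a neutrophil extracellular trap (NET). Padi2 has the widest tissue range of the family, macrophages and brain among its sites, and acts on cytoplasmic proteins such as vimentin as well as on histones. Padi1 and Padi3 are best known from skin and hair follicle, and Padi6 from the oocyte.

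RNA-seq had been run on bone marrow of mice aged 4 to 12 weeks in which Spop, the substrate adaptor of a cullin-3 ubiquitin ligase, was intact, Spop(+/+), or deleted, Spop(D/D), called wild type and knockout below. LSK cells, the fraction with stem cells and multipotent progenitors, gave 2 wild-type and 2 knockout libraries. Ly6G+ neutrophils gave 2 wild-type and 3 knockout libraries. The labels name no Cre driver, strain, sex or further treatment for any group, nor do they state that each library was a different animal. The p-values thus reflect only how far these libraries differ, and that may be technical spread. The question of the series is whether Spop restrains the blood-forming response to inflammation by acting on MyD88.

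LSK libraries held 18827892 to 20264417 counted reads and neutrophil libraries 21012702 to 27434086. Spop transcript itself was at 380 and 390 CPM (reads of the gene scaled to a library of 1e6 reads, adjusted by TMM factors within a population) in wild-type LSK libraries against 312 and 306 CPM in knockout ones, and did not separate the genotypes in neutrophils (135 and 194 against 158, 178 and 210 CPM); reads from exons outside a deletion still count, so this does not check the neutrophil labels. The cell type field of the second knockout LSK library names neutrophils although its title names LSK cells; Ly6g, the antigen of the neutrophil sort, had 0 reads in it and in the other 3 LSK libraries, and Kit, a defining LSK receptor, was at 644 CPM. The second wild-type neutrophil library stood apart: Ly6g was at 85.7 CPM in it against 515 CPM in its wild-type partner and 700, 351 and 914 CPM in knockout, and the 12 genes of neutrophil identity summed to 38850 CPM against 224076 to 674654 CPM. The third knockout neutrophil library stood apart too, with the highest of those sums (231135 and 246595 CPM in the other knockout libraries), red cell genes at 18666 CPM against 41.8 and 3.91 CPM, and a TMM factor of 0.620.

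In the mouse the 5 PAD genes lie side by side on chromosome 4 (GRCm38). Padi6, Padi4, Padi3 and Padi1 follow each other on the minus strand, and Padi2 is at the other end on the plus strand. Padi4 (ENSMUSG00000025330) spans 140745865 to 140774236 and has 4835 exon bases, of which none are shared with another gene. Padi2 (ENSMUSG00000028927) spans 140906344 to 140952586 and has 5013 exon bases, of which 2.97% are shared with Gm13031, an antisense transcript at its 3′ end. Reads of the pair cannot be told apart there without strand, but Gm13031 itself had at most 8 reads in any library. The start regions of both genes are shown because Padi2 was the gene with almost no transcript in knockout neutrophils while Padi4, in the same cluster, was abundant there. They come from RefSeq (GRCm38.p6), 250 bases before the start to 50 after it, with capitals on every match to the motifs searched on both strands: the GC box GGGCGG, the TATA box TATAAA, the C/EBP pattern TTNNGNAA and the PU.1 core GAGGAAG.
Padi2, chr4:140906110-140906409, plus strand: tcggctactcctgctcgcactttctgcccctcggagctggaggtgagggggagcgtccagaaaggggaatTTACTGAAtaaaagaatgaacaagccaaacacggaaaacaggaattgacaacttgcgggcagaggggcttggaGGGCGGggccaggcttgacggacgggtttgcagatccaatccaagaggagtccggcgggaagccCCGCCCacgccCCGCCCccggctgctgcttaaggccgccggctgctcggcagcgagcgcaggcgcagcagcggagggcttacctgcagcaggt
Padi4, chr4:140774154-140774453, minus strand: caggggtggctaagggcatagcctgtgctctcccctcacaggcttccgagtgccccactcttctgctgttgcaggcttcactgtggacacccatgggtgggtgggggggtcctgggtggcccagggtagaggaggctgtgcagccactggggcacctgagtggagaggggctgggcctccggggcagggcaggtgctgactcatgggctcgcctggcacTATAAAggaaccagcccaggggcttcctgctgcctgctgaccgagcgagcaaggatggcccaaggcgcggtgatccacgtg

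The start regions differed in kind. The Padi2 region held 22 CpG dinucleotides, against a median of 7 over 27025 RefSeq promoters of the same length, together with 3 GC boxes and no TATA box. Those boxes began 107, 43 and 32 bases before the start, and 35.9% of all promoters hold at least 1. The Padi4 region held 8 CpG dinucleotides, no GC box and a TATA box that began 31 bases before the start, a motif in 14.2% of promoters. The C/EBP pattern was found once in the Padi2 region, 180 bases before the start, and not in that of Padi4 (40.7% of promoters hold it). The PU.1 core (13.5% of promoters) was in neither window. No binding or chromatin was measured in these samples.

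Padi2 was expressed in LSK cells of both genotypes and in wild-type neutrophils, and was close to 0 in knockout neutrophils alone among the 4 groups. LSK libraries held 57.7 and 64.0 CPM when wild type and 48.7 and 51.6 CPM when knockout. Wild-type neutrophil libraries held 41.3 and 45.4 CPM. Those were 1160 and 1502 reads, whereas the knockout neutrophil libraries held 18, 8 and 0 reads, which is 0.656, 0.316 and 0 CPM. The groups do not overlap, and the lowest wild-type library was 63.0-fold above the highest knockout library.

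The neutrophil group means were 43.3 ± 2.91 CPM (SD, n = 2) in wild type and 0.324 ± 0.328 CPM (SD, n = 3) in knockout, a 134-fold difference and a fitted log2 fold change of -6.96. Counting error leaves 0.389 to 1.04 CPM for the first knockout library and 0.136 to 0.623 CPM for the second (exact Poisson 95% intervals). The third knockout library, at 0 reads, lay 236-fold below the wild-type mean when set to a floor of 3 reads (0.184 CPM). That floor is lower than the upper limit of the exact Poisson 95% interval for 0 reads. The third library is also the knockout library with the most red cell transcript, and without it the fitted log2 fold change was -6.47. In this contrast, which chose Padi2, 101 of 12836 genes tested had a lower fitted log2 fold change. Among those 101 were the MHC class II gene H2-Aa (-8.49) and the B cell gene Cd79a (-7.21). In bulk RNA a transcript can be lower because fewer cells of a type were present or because each cell held less of it, and these cannot be told apart.

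**Figure D1:**
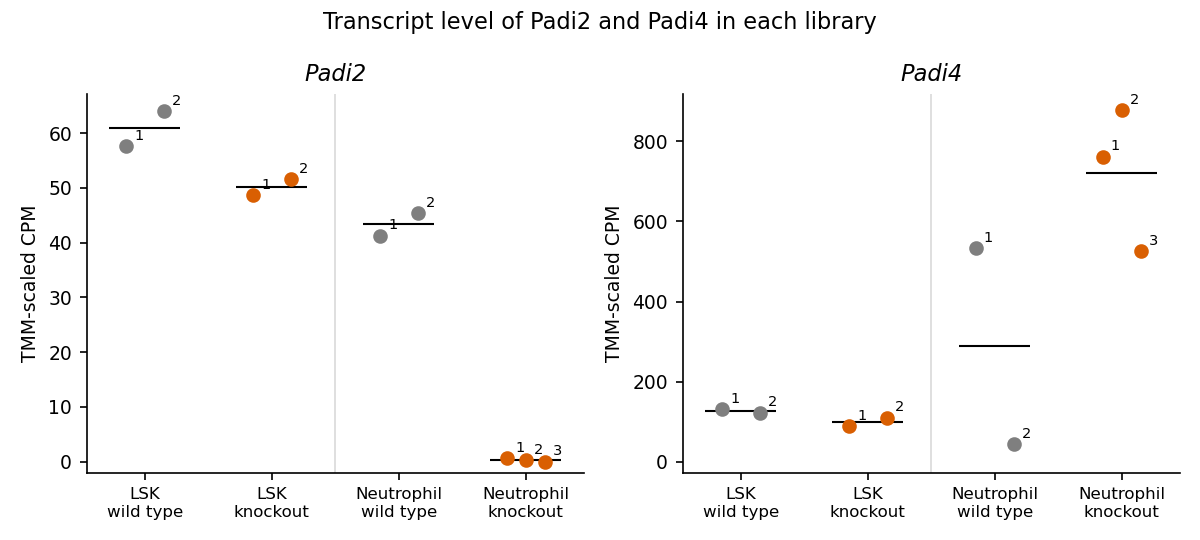
TMM-scaled CPM (vertical axis, linear) of Padi2 (left) and Padi4 (right) in each library (points, numbered by replicate) of the 4 groups, with group means as bars. Padi2 lay between 41.3 and 64.0 CPM in 6 libraries and at or below 0.656 CPM in the 3 knockout neutrophil libraries, whereas Padi4 was lowest in the second wild-type neutrophil library.

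Padi4 had another pattern. Wild-type LSK libraries held 131 and 123 CPM, knockout LSK libraries 89.6 and 110 CPM. Wild-type neutrophil libraries held 533 and 44.6 CPM, knockout neutrophil libraries 762, 878 and 526 CPM. The genotypes overlap in neutrophils, since the first wild-type library lay above the third knockout library. The fitted log2 fold change of 1.32 (SE 0.958) rests on the library that stood apart: it was 0.41 without the second wild-type library and 4.08 without the first. Padi4 was 12.0-fold lower in the second wild-type library than in the first, while Padi2 was at nearly the same level in both.

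Levels of a gene in LSK cells and in neutrophils come from tables normalized apart, and their order turned on the scaling for Padi2. Within a population, wild-type LSK cells held 60.9 ± 4.50 CPM of Padi2 and knockout LSK cells 50.1 ± 1.99 CPM (SD, n = 2 each), without overlap. Such separation is common, since both wild-type LSK libraries lay above both knockout LSK libraries at 38.3% of genes tested. Wild-type neutrophils held more Padi2 than knockout neutrophils. With TMM factors from all 9 libraries together, wild-type neutrophils came out higher than LSK cells (66.6 and 70.1 CPM against 29.0 to 38.5 CPM), the reverse of the order given by separate factors. For Padi4 every neutrophil library but the second wild-type library was above all LSK libraries under either scaling. Knockout neutrophils had the highest mean of Padi4 (722 ± 180 CPM, n = 3), then wild-type neutrophils (289 ± 345 CPM, n = 2), which overlapped with them and with the LSK groups, then wild-type LSK (127 ± 6.14 CPM) and knockout LSK cells (99.7 ± 14.3 CPM), which did not overlap.

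Per kb of exon, which allows the 2 genes to be compared, Padi4 was the more abundant PAD transcript in all 9 libraries, although in the second wild-type neutrophil library by only 1.02-fold. In LSK libraries its level was 1.91 to 2.36 times that of Padi2. The ratio was 13.4 in the first wild-type neutrophil library and 1205 and 2880 in the first and second knockout neutrophil libraries, and the third held no Padi2 read. Of the summed PAD level per kb, Padi2 made up 29.3% to 34.0% in LSK libraries, 6.90% and 48.9% in wild-type neutrophils and at most 0.0826% in knockout neutrophils. The summed PAD level itself was 119 and 18.5 CPM per kb in wild-type neutrophils and 158, 183 and 110 CPM per kb in knockout.

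**Figure D2:**
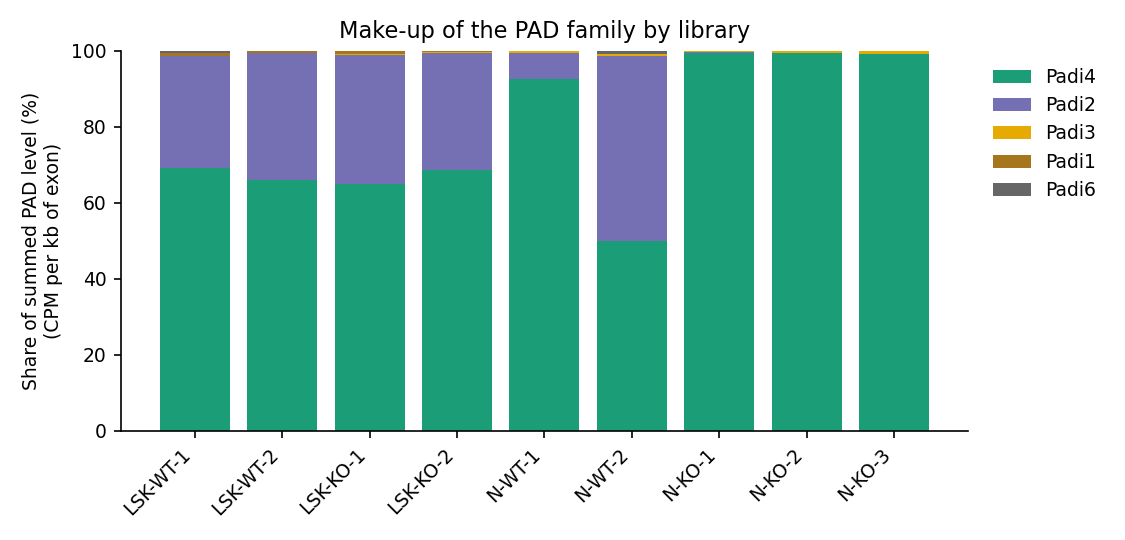
Share of each PAD gene in the summed PAD level, in percent of CPM per kb of exon (vertical axis), for each library (horizontal axis). Padi4 and Padi2 share the LSK libraries about 2 to 1, and Padi4 makes up 99.1% to 99.5% in knockout neutrophils.

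The rest of the family was barely transcribed. Padi3 ran at 2.67 and 0.332 CPM in wild-type and 2.26, 3.40 and 3.36 CPM in knockout neutrophils, 11 to 86 reads per library, and at 2 to 8 reads in LSK libraries. Among the 5 neutrophil libraries it was lowest in the library where Padi4 was lowest. Padi1 had 7 to 24 reads in LSK libraries and at most 2 in neutrophils, and 1200 of its 3754 exon bases are shared with the opposite-strand gene Gm13032. Padi6 had at most 12 reads in any library. Genes next to Padi2 are given in raw reads, which do not allow for library size. Downstream, Sdhb, a succinate dehydrogenase subunit, had 4820, 4495 and 4772 reads in knockout neutrophils against 5561 and 5397 in wild type. Atp13a2, a lysosomal transporter, had 3344, 5054 and 594 reads against 1730 and 2073. TMM-adjusted neutrophil library sizes ran from 16348323 to 33087640 reads, and in TMM-scaled CPM the genotypes overlapped for both genes. Upstream, Padi1 and the noncoding 4930515B02Rik were at or near 0 reads in neutrophils of both genotypes, and the antisense Gm13031 had 2 and 6 reads in wild type and 0 in every knockout library.

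In LSK cells, where a test could be made, both genes were modestly lower in knockout, and Padi4 alone passed. The Padi4 difference was -0.35 in log2 (SE 0.116; its 95% interval ran from -0.60 to -0.10; edgeR quasi-likelihood test, adjusted p = 0.0295), a level 0.786 times that of wild type. Padi2 had a log2 fold change of -0.28 (SE 0.123, interval -0.55 to -0.01, adjusted p = 0.0857, edgeR), which did not pass after adjustment over all genes. Both knockout libraries were below both wild-type libraries for both genes. Such separation was found at 38.3% of the 13008 genes tested, 42.2% of genes passed and 21.2% passed as lower, so 1 of 2 genes called lower is not a result about PADs. The absolute log2 change was larger than that of Padi4 for 55.8% of all genes tested. The difference between the 2 genes, and between the LSK and neutrophil effects, was not tested, the latter because the neutrophil contrast chose the genes.

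The Padi4 call in LSK cells was not stable. It was lost without the first wild-type library (adjusted p = 0.203), the second wild-type library (0.0839) or the first knockout library (0.260), and with DESeq2 (0.0546). Without the second knockout library, the one with the neutrophil entry among its labels, the log2 fold change was -0.50 (adjusted p = 3.87e-04, edgeR).

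**Figure D3:**
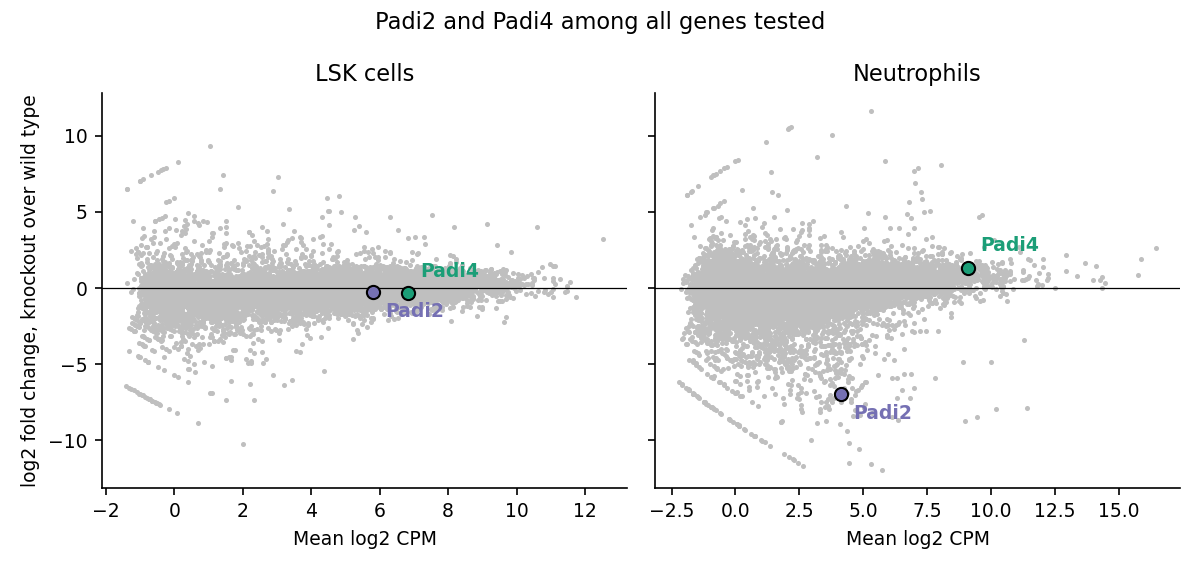
Log2 fold change of knockout over wild type (vertical axis) against mean log2 CPM (horizontal axis) for every gene tested in LSK cells (left) and neutrophils (right), grey points. Padi2 and Padi4 lie within the cloud of genes in LSK cells (-0.28 and -0.35), while Padi2 lies at -6.96 in neutrophils.

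Genes split like Padi2 in neutrophils were counted as a description. Across 12836 genes, 9 had both wild-type libraries at 10 CPM or more and at least 10-fold above every knockout library, 0.0701% of genes. This filter and the genes it returned were chosen after values had been seen. The filter was drawn around the Padi2 split, so Padi2 is among them by construction, and the share depends on the cut. Besides Padi2 they were Cx3cr1, the fractalkine receptor of monocytes and macrophages, Fcgrt, the neonatal Fc receptor, Fcna, a ficolin of macrophages, Hpgd, which breaks down prostaglandins, Cyp27a1, a sterol hydroxylase, Arl5c, the immunoglobulin segment Igkv14-126 and Xist, the transcript of the inactive X chromosome. In 3 of the 9, Padi2, Fcna and Igkv14-126, the wild-type libraries lay within 2-fold of each other. Cx3cr1, for comparison, ran at 20.5 and 64.7 CPM (wild type) and 1.09, 1.26 and 0.245 CPM (knockout).

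Sex-linked transcripts split the neutrophil libraries by genotype as completely as Padi2 did. Xist ran at 10.7 and 90.5 CPM (wild type) and 0, 0.198 and 0 CPM (knockout). The Y-linked gene Eif2s3y had 0 and 1 reads in wild type and 1343, 1297 and 1556 reads in knockout, and Ddx3y had 1 and 0 reads against 521, 651 and 400. Sex and genotype therefore cannot be told apart in the neutrophil values of Padi2 and Padi4. All 4 LSK libraries carried Y-linked transcripts, with Ddx3y at 71.1 to 120 CPM, so that the LSK comparison does not have this split.

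Markers of some other cells also moved with the neutrophil genotypes. The 3 chains of complement C1q, made by macrophages, were at 13.9 and 88.6 CPM (C1qa), 24.9 and 126 CPM (C1qb) and 18.1 and 90.7 CPM (C1qc) in wild type, against 0.219 to 5.69 CPM in knockout. The sum over the list of 14 monocyte and macrophage genes did not follow, at 2289 and 2217 CPM (wild type) against 2520 to 3053 CPM (knockout). Ly6c2 alone gave 1250 and 447 CPM of it against 1556 to 2410 CPM. The median log2 fold change of the 14 genes was -2.24, against 0.02 over all genes tested, so the sum hides lower members. Of these, Mrc1 was at 0 reads in the second knockout library. The 10 genes of MHC class II and dendritic cells gave 554 and 25198 CPM (wild type) against 19.4 to 88.9 CPM (knockout), and the 12 B cell genes 426 and 6550 CPM against 21.6 to 143 CPM. B cell markers at 0 reads numbered 0 and 1 in the wild-type libraries and 3 to 4 in the knockout libraries. T and NK cell genes summed to 182 and 1267 CPM against 42.2 to 134 CPM, and of these 11 genes 0 had no read in wild type and 1 to 3 in knockout.

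Between the wild-type libraries the MHC class II sum differed by 45.5-fold, the B cell sum by 15.4-fold and Padi2 by 1.10-fold, all in TMM-scaled CPM. The Padi2 ratio depends on that scaling. Its reads were 1160 of 25897464 counted in the first library and 1502 of 21012702 in the second, with TMM factors of 1.09 and 1.58. The monocyte and macrophage sum was nearly equal in both libraries, in the second 0.969 times that in the first, but its members were not. Ly6c2 (1250 and 447 CPM) and F13a1 (332 and 128 CPM) were higher in the first library. The 3 C1q chains were 5.01-fold to 6.38-fold higher in the second. The 8 mast cell and basophil genes also moved with genotype, at 50.03 and 38.5 CPM in sum against 21.6, 4.39 and 2.75 CPM, and differed by 1.30-fold between the wild-type libraries. That sum came mostly from Prss34 in the first (33.4 CPM, 4.08 CPM in the second) and from Cma1 in the second (27.6 CPM, 0 in the first). The 11 red cell genes did not follow genotype, at 1792 and 3741 CPM against 41.8, 3.91 and 18666 CPM. The part of other cells in the Padi2 difference was not tested. Of 9 early neutrophil genes, 7 were higher in the first wild-type library than in every knockout library, Mpo at 4081 CPM against 2436, 416 and 751 CPM among them. Their sum was 22084 CPM there and 18269 to 26215 CPM in knockout, but Chil3 carried much of it, and without that gene it was 11682 CPM against 6153, 2066 and 5683 CPM. Late neutrophil genes summed to 11680 CPM in that wild-type library against 19200 to 24523 CPM. Against the first wild-type library alone the fitted log2 fold change of Padi2 was -6.91, and against the second alone it was -6.96. Each of these wild-type libraries had higher MHC class II and B cell sums than every knockout library.

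**Figure D4:**
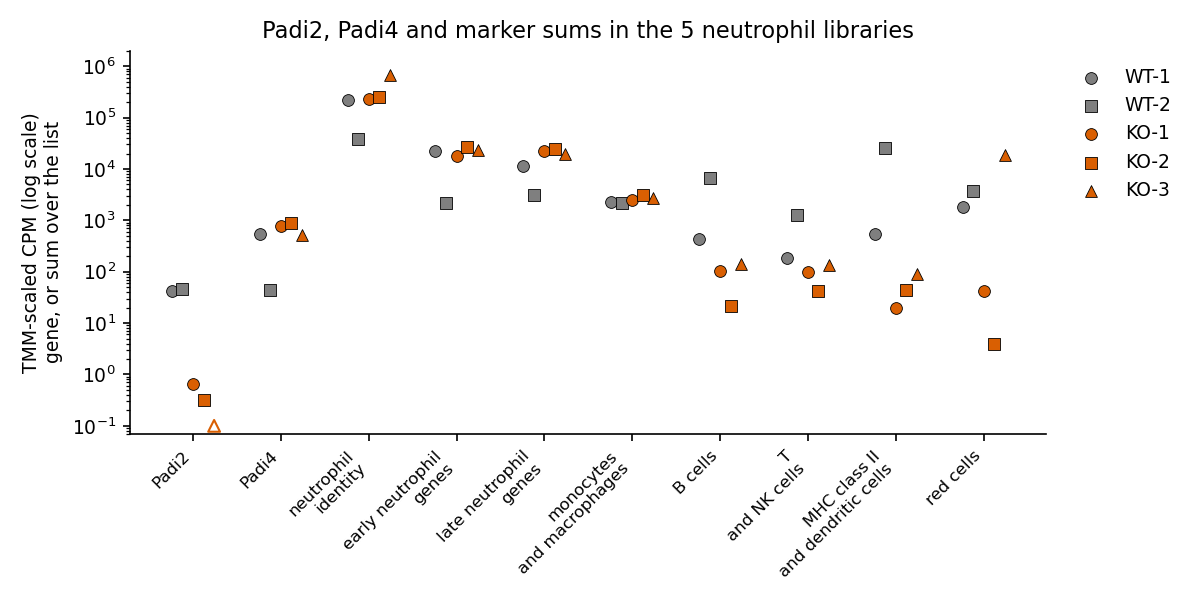
TMM-scaled CPM (vertical axis, log scale) of Padi2, Padi4 and sums over marker lists in the 5 neutrophil libraries, wild type in grey and knockout in orange; a hollow symbol marks 0 reads, drawn at the foot of the axis. Padi2 is alike in both wild-type libraries, whereas Padi4 and the neutrophil lists are lower, and the B cell, T and NK cell and MHC class II lists higher, in the second of them.

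The genes whose level over the 9 libraries was most like that of each PAD gene were ranked by Pearson correlation of log2 CPM among 9008 genes, as a description over libraries that share 2 populations and their depths. For Padi4 these were Flot1, the membrane scaffold flotillin (r = 0.998), Ap2a2, a subunit of the clathrin adaptor AP-2 (0.995), Arap3 (0.994), Osbpl2 (0.992) and Pef1 (0.992). In neutrophils Flot1 ran at 275 and 58.2 CPM (wild type) and 322, 345 and 256 CPM (knockout), the same dip in the second wild-type library. For Padi2 they were Gnl1, a GTPase (0.983), Mier2 (0.982), Rnf187 (0.982), Cmtm3 (0.982) and Yipf2 (0.980). Their range was much narrower than that of Padi2: Gnl1 in neutrophils ran at 35.1 and 35.2 CPM (wild type) and 20.3, 18.6 and 12.1 CPM (knockout). The correlation between Padi2 and Padi4 over the same libraries was -0.708.

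Genes that work with Padi4 in NET formation were read from lists, and in LSK cells several rose while Padi4 did not. Against 21.0% of all genes that passed as higher and a median log2 fold change of -0.03, the NADPH oxidase, whose oxidants trigger NETs, had 4 risers and no faller among 6 genes (median 0.49). The oxidase subunit Cybb rose from 7.09 to 90.1 CPM (log2 3.66, adjusted p = 3.30e-08, edgeR) and its regulator Ncf1 from 124 to 175 CPM (log2 0.49). Without the second wild-type library 2 of the oxidase genes rose, and without the second knockout library 1 fell. All 4 genes of azurophil proteins that act on chromatin in NETs rose (median 3.04), among them the elastase gene Elane (178 to 2912 CPM, adjusted p = 0.0206) and the peroxidase gene Mpo. Without either knockout library 3 of the 4 rose.

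Among 5 genes of membrane pores and lysis, 3 rose and 0 fell (median 0.46), against 21.0% and 21.2% of all genes: Mlkl, the executor of necroptosis (log2 0.89), Casp1 (log2 0.55) and Ripk3 (log2 0.46). Gsdmd, the pore protein gasdermin D, averaged 100 CPM in wild type, 82.3 CPM in knockout, and did not pass (adjusted p = 0.0521, edgeR). Without the second knockout library 1 of the 5 fell, and without the second wild-type library 2 rose. Of 9 tested receptors that can start NET release, out of 12 listed, 6 rose and 1 fell (median 0.49), the rising ones including Clec7a (dectin-1, log2 2.59), the Fc receptor Fcgr3 (log2 2.27) and the chemokine receptor Cxcr2 (log2 2.20). The integrin chain Itgb2 fell (log2 -0.55). Only 3 of the receptors rose without the second knockout library, and 4 when either wild-type library was left out.

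Of 9 tested genes for proteins that coat NETs, out of 10, 2 rose and 3 fell (median -0.54). The share that rose was near the 21.0% of all genes, and 21.2% of all genes passed as lower. Lcn2 (log2 4.96) and the collagenase Mmp8 (log2 2.97) rose, and Ngp (log2 -3.17), Lyz2 (log2 -0.54) and the lactoferrin gene Ltf (log2 -2.83) fell. Except for Lyz2 (581 CPM in wild type, 399 CPM in knockout), these changes started from or ended at few reads. Mean CPM in wild type and knockout were 1.83 and 57.2 (Lcn2), 0.633 and 5.01 (Mmp8), 7.36 and 0.810 (Ngp), and 1.72 and 0.237 (Ltf). Without the second knockout library 4 rose, without the first 5 fell, and without the first wild-type library 1 fell. Neither of the 2 nucleases that could be tested, of 5 listed, passed. The marker counts that follow stand beside the same shares of all genes, 21.0% higher and 21.2% lower. Of 14 monocyte and macrophage genes 7 rose, Ly6c2 (log2 3.38) and F13a1 (log2 4.02) among them, and 5 fell, including C1qa (log2 -4.09), C1qb (log2 -4.93) and C1qc (log2 -4.63), the macrophage genes that were also low in knockout neutrophils. Of 9 early neutrophil genes 8 rose (median 2.86), and all 4 azurophil genes are among the members of that list. Of 8 mast cell and basophil genes 7 rose and 1 fell, while 9 of 11 tested B cell genes and 8 of 11 red cell genes fell, with 0 risers in both. Of 10 LSK identity genes 8 fell, Kit among them (log2 -0.71), and 1 rose. The part of these marker changes in the oxidase, azurophil, pore, receptor and other lists was not tested.

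Calcium handling, on which PAD activity depends, had 3 risers and 6 fallers among 18 genes (median -0.21), against 21.0% and 21.2% of all genes. Atp2a2, the pump that fills calcium stores, rose (log2 0.93), and the phospholipase Plcg1 fell (log2 -0.85). The count of fallers moved with every library left out. It was lower without either wild-type library or the second knockout library, and higher without the first knockout library. Each omission leaves a single library in its group. Of 16 reported PAD substrates and partners, 4 rose and 3 fell (median 0.06), shares close to those of all genes; 7 rose without the first knockout library, and 2 fell without the first wild-type library or without the second knockout library. The lamin gene Lmnb1 (log2 0.85) and the cell cycle factor E2f1 (log2 0.71) rose, and Ing4 (log2 -0.80) and the myelin protein gene Mbp (log2 -0.65) fell.

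**Figure D5:**
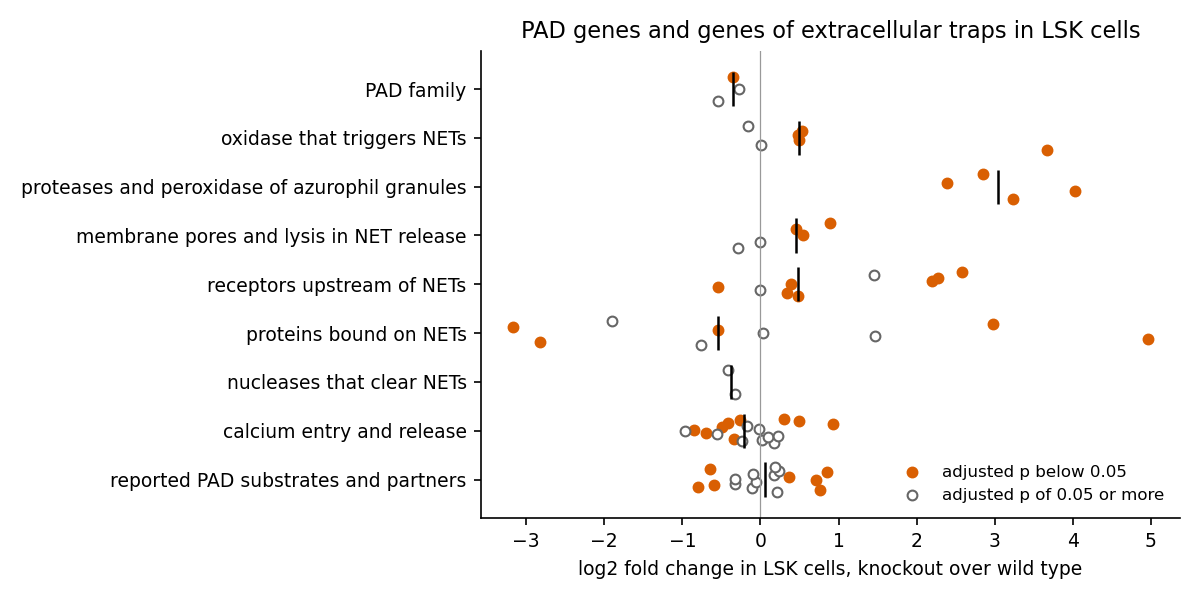
Log2 fold change of knockout over wild type in LSK cells (horizontal axis) for each tested member of the PAD family and of lists tied to NETs, calcium and PAD substrates (rows), filled where the adjusted p was below 0.05 and hollow otherwise, with the list median as a vertical line. Padi4 is the filled PAD gene at -0.35, left of the medians of the oxidase and azurophil lists at 0.49 and 3.04.

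In neutrophils 0 of 12836 genes passed with edgeR (0.0%), with 1787 at an unadjusted p below 0.05 and 932 passing in DESeq2, and edgeR called no member of these lists. Medians are given as a description of the contrast that chose Padi2: 0.88 for the oxidase, -0.36 for azurophil proteins, 0.54 for pores and lysis, 1.36 for receptors, 1.37 for proteins bound on NETs and 0.24 for calcium handling, against 0.02 over all genes tested. They include the library with fewer neutrophil transcripts, as does the Padi4 value of 1.32.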

How the data were processed

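Polyadenylated RNA from sorted marrow cells was made into libraries with a SMART-Seq kit for ultra-low input, per the labels' protocols, a chemistry that does not mark strand. Per the submitters' processing notes the tools were STAR, featureCounts, DESeq2 and bcl2fastq and the builds mm10 and GRCm38. Annotation, versions and counting options are not stated there. The authors deposited raw counts of reads per gene, used in all fits, and normalized values (unit: signal), which are the deposited counts divided by 1 factor per library and served as an alternative.

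LSK identifiers took symbols and exon lengths from GENCODE M21 (GRCm38); 35412 of 37187 matched, and 35226 genes were joined across tables. Libraries were grouped by title. Each population was fitted across all genes with edgeR 4.0.16 (R 4.3.3): TMM factors, expression filter, robust quasi-likelihood test, Benjamini-Hochberg adjustment, threshold 0.05. DESeq2 1.42.0 was an alternative, as were other scaling, no filter, a replicate block, a fit of all 9 libraries and leaving out each library. Intervals and the floor of 3 reads cover counting error only, since without molecular identifiers PCR copies are counted too. The code was tested on simulated data. The members, gene lists and tests were chosen with earlier results of these data known. Genes named are Padi2, Padi4, the other PAD genes, checks of labels, up to 4 members of a list by smallest LSK p, and the 5 genes most like each member (Pearson r of log2 CPM over 9 libraries, prior count 2, mean log2 CPM of at least 2, no clone names); Ly6c2, F13a1, Mrc1, Chil3, Prss34, Sdhb, Atp13a2, 4930515B02Rik, Ltf, Gm13031, Gm13032, sex-linked genes, genes split like Padi2 and genes split the opposite way were added after their values were seen.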

Additional observations from a re-analysis of the deposited data

How the results depend on the processing

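In neutrophils the log2 fold change of Padi2 kept its direction under every alternative run, from -7.94 to -6.47 when each library was left out in turn and -7.09 from the authors' normalized values. That of Padi4 ran from 0.41 to 4.08 over the same omissions. In LSK cells Padi2 passed with upper-quartile scaling (-0.37, adjusted p = 0.0270, edgeR), and ran from -0.35 to -0.20 when each library was left out. Padi4 was not called with DESeq2 (-0.32) or in the fit of all 9 libraries (-0.34, adjusted p = 0.972), and ran from -0.50 to -0.17 when each library was left out.

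The number of LSK genes passing was 0 in the fit of all 9 libraries and 3524 (without the first wild-type library) to 5718 when each was left out, against 5494. Upper-quartile scaling changed the share that rose from 49.8% to 39.0%. In neutrophils 334 genes passed without the filter, 932 with DESeq2, 563 in the fit of all 9 libraries, and 0 to 601 when each library was left out, 601 of them without the first wild-type library.

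With the replicate number as a block, 5776 LSK genes passed, Padi4 kept its call (-0.35, adjusted p = 0.0103) and Padi2 did not pass (-0.28, 0.0940); in neutrophils 334 genes passed and Padi2 and Padi4 stood at -6.52 and 2.41, a fit in which the third knockout library, alone in its block, adds nothing to the contrast. Same-numbered libraries hardly deviated together (correlation 0.00393 in LSK cells, 0.239 and -0.0241 in neutrophils), so the numbers are not taken as pairs.

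Depth limits Padi2 in knockout neutrophils, where 26 reads in all were counted in 3 libraries, and the other PAD genes.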

Other observations

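The mirror image of the Padi2 split had every knockout neutrophil library at 10 CPM or more and at least 10-fold above both wild-type libraries. It was found at 10 of 12836 genes tested (0.0779%), against 0.0701% for the Padi2 split. These 10 genes were named after their values were seen. They were the stefin A genes Stfa1, Stfa2 and Stfa3, BC100530, Gm5483, Nos2, the inducible nitric oxide synthase, Ifitm1, an interferon-induced membrane protein, the endothelial lipase Lipg, and the Y-linked Ddx3y and Eif2s3y. Nos2, which makes nitric oxide from arginine, the residue that PADs modify, ran at 0.569 and 0.0302 CPM (wild type) and 94.0, 151 and 44.0 CPM (knockout). Reads of the stefin genes can be split between similar copies, so their values are uncertain.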
